A study of Homo sapiens with 6 samples.

Results

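The citric acid cycle enzymes studied here were measured on arrays in the human myeloma line MM1.S with and without knockdown of beta-catenin. The set was given as 9 gene symbols (CS, IDH2, IDH3A, IDH3B, OGDH, SUCLG1, SUCLG2, FH and MDH2), and every probe set that the array annotation pairs with one of them was taken. This gave 20 probe sets of 8 genes, out of 54613 non-control probe sets and 19775 genes. FH, which encodes fumarase, had no probe set paired with it in the annotation used here and was not analysed here. The control group held 3 arrays of cells infected with a lentiviral control shRNA (named pKLO GFP control), and the knockdown group 3 arrays of cells infected with lentivirus carrying an shRNA against beta-catenin. All cultures shared the MM1.S background, the lentiviral infection and a sort for GFP-positive cells. The titles call the replicates biological, and the protocol describes triplicate cultures of the sorted cells and no separate infections, so p-values measure the spread between these cultures and not between infections. The hairpin's sequence and the number of hairpins are not given in the labels used here. Some labels speak of embryos and maternal transcripts, which goes against the cell line named elsewhere in them, and these were set aside.

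The citric acid cycle, also called the TCA cycle, runs in the mitochondrial matrix and oxidises the acetyl group of acetyl-CoA to carbon dioxide. It passes the electrons to NADH and FADH2, which feed the respiratory chain. Its intermediates also leave the cycle as precursors of lipids and amino acids, and other reactions refill it. Several steps have more than one enzyme: isocitrate is oxidised by the NAD-dependent IDH3 complex or by the NADP-dependent IDH2, and succinyl-CoA ligase makes GTP or ATP according to which beta subunit it holds.

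Values are log2 expression per probe set, with a floor at 4 in the deposited table. Array medians lay between 5.44 and 5.54. All 8 plasma cell and myeloma markers on the list (among them SDC1, CD38, TNFRSF17 and PRDM1) lay above 5.49, the median of all probe set means, which served as the filter on dim probe sets. Their summed log2 values were 78.06 to 78.68 in control and 79.08 to 79.41 in knockdown arrays. Of the markers with a probe set, 1 of 3 B cell markers, 2 of 5 T and NK cell markers, 2 of 3 myeloid markers, 4 of 5 fibroblast markers and 3 of 5 markers of kidney packaging cells lay above that filter. MS4A1, PAX5, CD3E, CD14 and COL3A1 were among those below it. Among those above it, COL1A1 averaged 7.91 in control and 8.01 in knockdown arrays, and CD22 7.66 and 7.73. Both read higher than CD38 of the myeloma list (6.81 and 7.20). The summed levels of the 5 lists of other cell types overlapped between the groups. CTNNB1, the targeted gene, averaged 7.75 ± 0.08 in control and 6.42 ± 0.10 in knockdown arrays (SD, n = 3 each) on its brightest probe set, a fall (limma, adjusted p = 2.27e-07 over all probe sets). Another CTNNB1 probe set rose by 0.33 (limma, adjusted p = 0.0390) and the third differed by -0.07 (limma, adjusted p = 0.716), so 1 of 3 probe sets showed the fall.

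The genes of the set did not move as a group. With each gene read by its brightest probe set, IDH2, the NADP-dependent isocitrate dehydrogenase of mitochondria, rose 1.96-fold in the knockdown. IDH3B, SUCLG1, CS and SUCLG2, which encode parts of the NAD-dependent isocitrate dehydrogenase, of succinyl-CoA ligase and citrate synthase, fell by 0.46, 0.34, 0.32 and 0.26 on the log2 scale. IDH3A, OGDH and MDH2 did not pass the test. Thus 5 of 8 genes were called, 1 higher and 4 lower, at an adjusted p under 0.05 (limma with Benjamini-Hochberg adjustment over 12939 genes, the gene test; other processing settings of it were also tried). Over all genes tested 47.3% were called, 25.3% higher and 22% lower, so calls were common throughout, and the count of 5 in 8 is not read as particular to these genes. The median change of the 8 genes was -0.20, beside 0.05 for all genes tested. Of the 20 probe sets, 18 lay above the filter, and 7 of 20 were called in the fit over all probe sets, 2 higher and 5 lower. The background of that fit was 23.2% called, 13.3% higher and 9.95% lower. Control and knockdown arrays were fully separated for 12 of the 20 probe sets (5 higher and 7 lower), beside 37.2% of all probe sets (22% higher and 15.1% lower). They were separated for 6 of the 8 genes (2 higher and 4 lower), beside 54.4% of all genes tested (29.9% higher and 24.5% lower). The shares over all probe sets also count those below the filter, while most member probe sets lay above it. Those shares are therefore of an unlike set, and no excess is read from them. In RNA of whole cultures, fewer cells that express a gene and less RNA per cell cannot be told apart. The 3 ribosomal RNA control probe sets read here also differed between the groups. Their mean was 8.58 to 10.1 in control and 10.3 to 11.0 in knockdown arrays, a difference of 1.35 (exact two-sided permutation p = 0.1, which is the lowest possible with 3 against 3 arrays), and its part in the results was not tested.

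**Figure D1:**
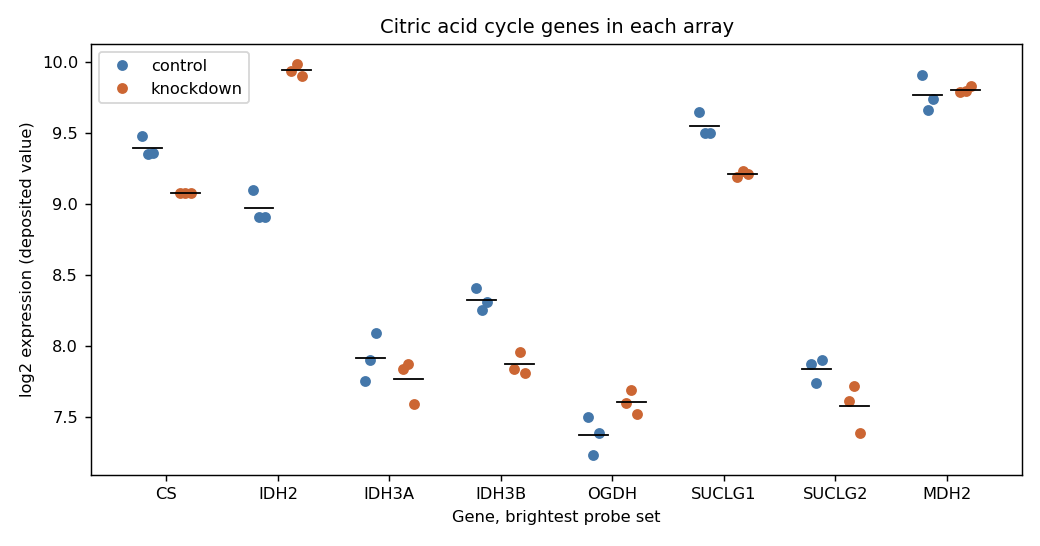
Log2 expression (y axis) of the brightest probe set of each of the 8 genes (x axis) in the 3 control and 3 knockdown arrays, 1 point per array, with a line at each group's mean. The knockdown points of IDH2 lie between 9.90 and 9.99, above all control points, while those of CS and SUCLG1 lie below all control points; the heights of different genes cannot be compared because each probe set has its own response.

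The stretches upstream of the start sites are shown for the gene that rose and for the 3 genes with the clearest falls, since these are the members whose transcripts moved in opposite directions. Each is the 250 bases before a start site given for the gene in RefSeq (GRCh38.p14), 5' to 3' on the gene's own strand. The first entry for each gene was taken, so a gene's other start sites were not searched. Which start site these cells use was not tested, and a stretch may lie inside a longer transcript. The stretches are chr15:90100622-90100871 for IDH2, chr20:2664217-2664466 for IDH3B, chr2:84459281-84459530 for SUCLG1 and chr12:56300331-56300580 for CS, all on the minus strand. Capitals mark matches to any of the motifs searched on both strands.
IDH2: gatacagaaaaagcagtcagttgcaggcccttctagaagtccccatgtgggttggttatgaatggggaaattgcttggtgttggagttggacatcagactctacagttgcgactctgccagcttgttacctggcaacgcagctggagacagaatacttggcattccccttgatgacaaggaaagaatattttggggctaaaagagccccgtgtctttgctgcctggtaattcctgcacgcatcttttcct
IDH3B: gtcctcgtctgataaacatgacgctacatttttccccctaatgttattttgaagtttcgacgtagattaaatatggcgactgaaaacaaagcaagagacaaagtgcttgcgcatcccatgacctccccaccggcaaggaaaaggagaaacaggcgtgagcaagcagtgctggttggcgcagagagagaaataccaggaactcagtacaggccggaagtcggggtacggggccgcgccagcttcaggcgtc
SUCLG1: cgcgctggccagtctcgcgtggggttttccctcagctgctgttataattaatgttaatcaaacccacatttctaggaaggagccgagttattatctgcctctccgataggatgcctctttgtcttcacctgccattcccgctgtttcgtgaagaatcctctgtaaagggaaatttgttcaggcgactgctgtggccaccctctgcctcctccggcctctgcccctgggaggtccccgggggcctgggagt
CS: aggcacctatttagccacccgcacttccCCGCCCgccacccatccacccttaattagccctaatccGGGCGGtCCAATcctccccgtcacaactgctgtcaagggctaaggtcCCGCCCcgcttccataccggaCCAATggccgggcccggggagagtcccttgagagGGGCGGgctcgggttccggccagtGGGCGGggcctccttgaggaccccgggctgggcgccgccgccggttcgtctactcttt
The motifs were CACGTG (E-box), CTTTGAT (TCF/LEF), TGACGTCA (CRE), the CCAAT box (its name spells it), GGGCGG (GC box), TCAAGGTCA (ERR element) and TGATGNAAT (CHOP-ATF4 composite). No 2 matches in these stretches overlapped. The CS stretch held 5 matches to the GC box and 2 to the CCAAT box. The GC box was in 3 of the 7 members with an entry (CS, IDH3A and SUCLG2) and in 42.3% of all 27305 stretches of this length. The CCAAT box was in CS alone of the 7 and in 33% of all. None of the 7 held the E-box (6.49% of all), the TCF/LEF motif (2.28%), the CRE (1.77%), the ERR element (0.319%) or the CHOP-ATF4 composite (0.916%). These are matches of letters in this window only. The GC content of the stretch was 48.4% for IDH2, 51.6% for IDH3B, 55.2% for SUCLG1 and 67.6% for CS.

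CS, citrate synthase, joins acetyl-CoA to oxaloacetate and opens the cycle. Its single probe set (208660_at) read 9.48, 9.35 and 9.36 in the control arrays and 9.08 in each of the 3 knockdown arrays. Every knockdown array lay below every control array. The fall from 9.40 ± 0.08 to 9.08 ± 0.0019 (SD, n = 3 each) amounted to 0.32 log2 units (SE 0.08), or 1.24-fold (limma, adjusted p = 0.00119). CS kept its call in all 15 alternative settings of the gene test, with an adjusted p of 3.27e-04 to 0.0112.

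IDH2 was the only called member that rose. Its brightest probe set (210046_s_at) read 9.10, 8.91 and 8.91 in control and 9.94, 9.99 and 9.90 in knockdown arrays. The lowest knockdown array lay well above the highest control array. The mean went from 8.97 ± 0.11 to 9.94 ± 0.05 (SD, n = 3 each), a rise of 0.97 (SE 0.08; limma, adjusted p = 1.13e-11). The second IDH2 probe set (210045_at) was dimmer and read 6.34, 6.23 and 6.44 in control and 7.17, 7.28 and 6.73 in knockdown arrays. It rose by 0.72 (SE 0.13; limma, adjusted p = 0.00120 over all probe sets), with knockdown replicate 3 nearest to the controls. Both probe sets thus rose, and IDH2 was called higher in all 15 alternative settings, with changes of 0.72 to 1.04.

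The NAD-dependent isocitrate dehydrogenase is built of alpha, beta and gamma subunits, of which the alpha subunit IDH3A carries the catalytic role and the others assist and regulate it. IDH3B, the beta subunit, fell on all 3 of its probe sets. The brightest (210014_x_at) read 8.41, 8.25 and 8.31 in control and 7.84, 7.96 and 7.81 in knockdown arrays. The groups did not overlap, and the fall from 8.33 ± 0.08 to 7.87 ± 0.08 (SD, n = 3 each) was 0.46 (SE 0.09), or 1.37-fold (limma, adjusted p = 1.76e-04). The next probe set (210418_s_at) went from 8.29, 8.04 and 8.18 to 7.63, 7.75 and 7.61, a fall of 0.51 (limma, adjusted p = 9.16e-04). The last (201509_at) went from 7.99, 7.74 and 7.80 to 7.36, 7.37 and 7.48, a fall of 0.44 (limma, adjusted p = 0.00321). These adjusted values of the dimmer pair come from the fit of every probe set. The first of these carries an _x_ mark, which Affymetrix gives to probe sets that may bind unrelated transcripts, the next an _s_ mark, given to those that read several related transcripts, and the last neither.

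IDH3A passed the test on none of its 3 probe sets. The brightest (202069_s_at) read 7.75, 7.90 and 8.09 in control and 7.84, 7.87 and 7.59 in knockdown arrays, so the groups overlapped. The difference was -0.15 (95% interval -0.37 to 0.07 in the gene test; limma, adjusted p = 0.263). The second (202070_s_at) differed by -0.11 and the third (231137_at), which lay below the filter, by -0.04. The intervals of the 2 brighter probe sets include a fall of the size seen for CS. Between the subunits, IDH3A minus IDH3B went from -0.41 ± 0.22 to -0.10 ± 0.11 (SD, n = 3 each), so their changes differed by 0.31 (exact two-sided permutation p = 0.1, the smallest possible; adjusted over 3 pairs 0.15). IDH2 minus IDH3A went from 1.06 ± 0.27 to 2.18 ± 0.11 (SD, n = 3 each), a difference of change of 1.12 (exact permutation p = 0.1; adjusted 0.15). The exact permutation test of 3 against 3 arrays cannot give a p below 0.1, so it could call neither pair.

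OGDH is the first enzyme of the 2-oxoglutarate dehydrogenase complex, which makes succinyl-CoA. Its 3 probe sets gave positive differences, and none passed the test. The brightest (201282_at) read 7.50, 7.23 and 7.39 in control and 7.60, 7.69 and 7.52 in knockdown arrays. A narrow gap separated the groups, and the difference was 0.23 (SE 0.10; limma, adjusted p = 0.0680). It passed the test in 3 of 15 alternative settings: quantile normalization (limma, adjusted p = 0.0167), testing just the brighter genes above the 75th percentile (0.0490) and leaving out control replicate 1 (0.0260). The second probe set (1554152_a_at) read 6.60, 6.91 and 7.14 in control and 7.10, 7.41 and 7.05 in knockdown arrays, a difference of 0.31 with overlapping groups. The third (1554151_at) differed by 0.12.

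Succinyl-CoA ligase, also called succinyl-CoA synthetase, makes a nucleotide triphosphate directly in the matrix; SUCLG1 is its alpha subunit and SUCLG2 the GTP-forming beta subunit. The bright SUCLG1 probe set (217874_at) read 9.65, 9.50 and 9.50 in control and 9.19, 9.23 and 9.21 in knockdown arrays. All knockdown arrays were lower, and the fall from 9.55 ± 0.08 to 9.21 ± 0.02 (SD, n = 3 each) was 0.34 (SE 0.08), or 1.26-fold (limma, adjusted p = 4.84e-04). A dim SUCLG1 probe set (244638_at) pointed the other way, with 5.63, 5.46 and 5.66 in control and 5.86, 5.80 and 5.92 in knockdown arrays. Its difference of 0.28 did not pass the test (limma, adjusted p = 0.0871 over all probe sets), and it lay close to the filter. With the mean of both probe sets, SUCLG1 differed by -0.03 and missed the threshold (limma, adjusted p = 0.802).

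SUCLG2 had 4 probe sets, of which the 3 bright ones gave differences of -0.26, -0.23 and -0.30 and the dim one (215774_s_at), below the filter, -0.02. All 4 carry an _x_ or _s_ mark. The alternative setting that puts probe sets of neither mark first therefore read the same SUCLG2 probe set and could not check the marks. The brightest (215772_x_at) read 7.87, 7.74 and 7.90 in control and 7.61, 7.72 and 7.39 in knockdown arrays. The groups did not overlap, but control replicate 2 and knockdown replicate 2 nearly touched. The fall was 0.26 (SE 0.10; limma, adjusted p = 0.0382 over the genes tested), while no SUCLG2 probe set was called over all probe sets (lowest limma adjusted p 0.0787). The call was lost in 8 of 15 alternative settings, among them without control replicate 1 (adjusted p = 0.0745), without control replicate 3 (0.124), without knockdown replicate 1 (0.0746) and without knockdown replicate 3, where the change was -0.17 (0.228). SUCLG1 minus SUCLG2 was 1.71 ± 0.09 in control and 1.64 ± 0.16 in knockdown arrays (SD, n = 3 each), so the changes of these subunits differed by -0.08 (exact permutation p = 0.6; adjusted 0.6).

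MDH2, the mitochondrial malate dehydrogenase, regenerates oxaloacetate and closes the cycle. Its bright probe set (209036_s_at) read 9.91, 9.66 and 9.74 in control and 9.79, 9.80 and 9.83 in knockdown arrays. The knockdown arrays lay inside the range of the controls, and the difference was 0.03 (95% interval -0.12 to 0.19 in the gene test; limma, adjusted p = 0.732). The dim probe set (213333_at) read 6.27, 6.02 and 6.28 in control and 6.47, 6.57 and 6.35 in knockdown arrays, a difference of 0.27 that did not pass the test (limma, adjusted p = 0.104 over all probe sets).

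**Figure D2:**
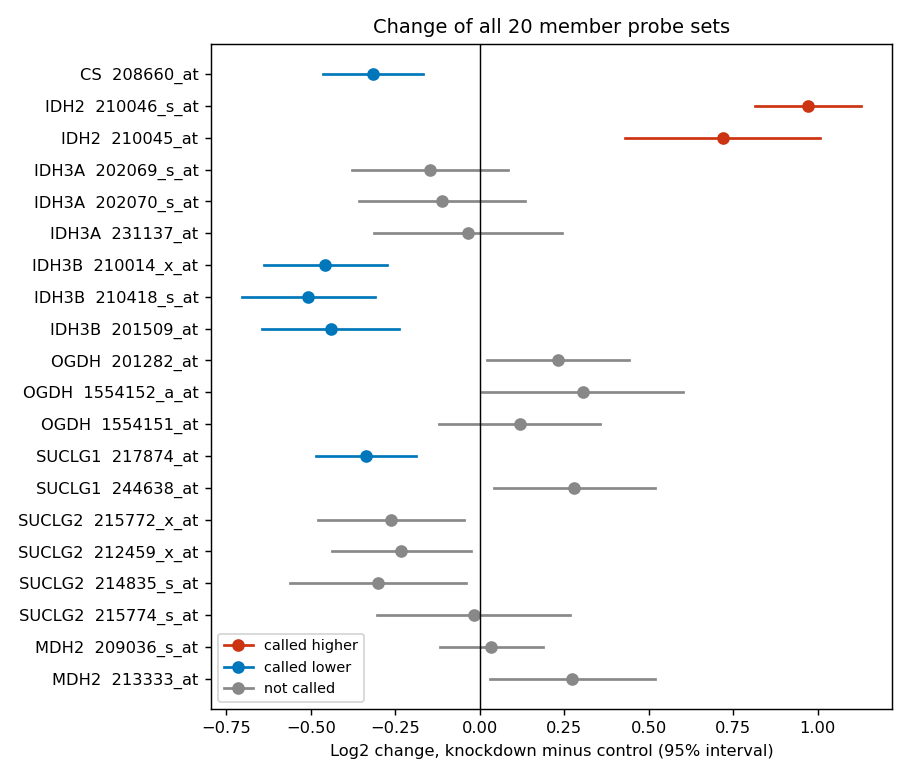
Log2 change from control to knockdown (x axis, point) with its 95% interval (line) for each of the 20 probe sets (y axis), from the limma fit over all probe sets. The 3 IDH3B probe sets lie between -0.51 and -0.44 and both IDH2 probe sets at or above 0.72. The SUCLG1 probe sets lie at -0.34 and 0.28, in opposite directions. Those of MDH2 lie at 0.03 and 0.27, with overlapping intervals.

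**Figure D3:**
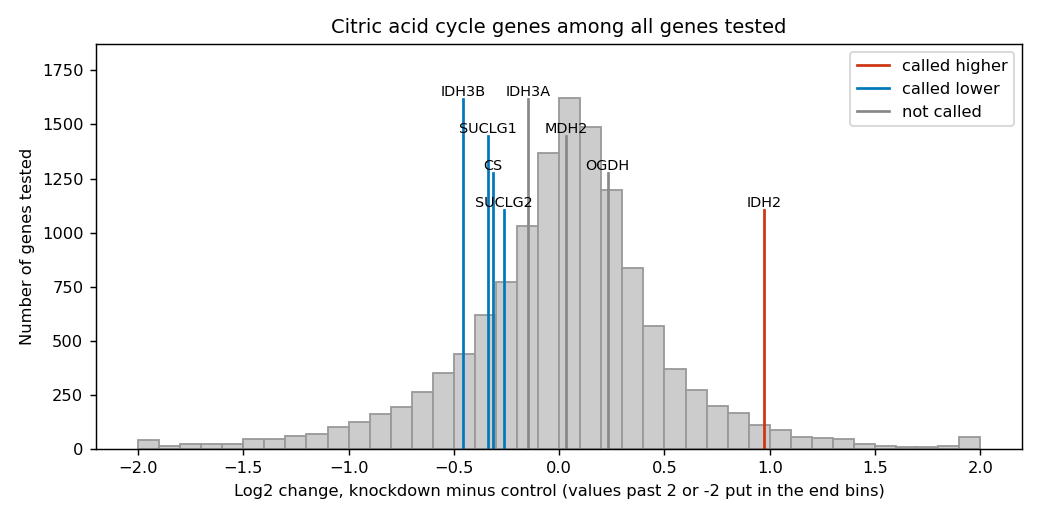
Histogram of the log2 change from control to knockdown (x axis) over the 12939 genes tested (y axis, number of genes), with a vertical line for each of the 8 citric acid cycle genes; line heights only separate the labels. IDH2, at 0.97, stands apart from the other members, which lie between -0.46 and 0.23.

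The other genes of the cycle and their cytosolic forms also held genes called in each direction. Of 12 genes listed, 10 were tested; 3 were called higher and 5 lower, with a median change of -0.16, where 25.3% of all genes tested were called higher and 22% lower. IDH1, the cytosolic NADP-dependent isocitrate dehydrogenase, read 6.87, 6.56 and 6.76 in control and 8.09, 8.06 and 8.14 in knockdown arrays. It rose by 1.37 (SE 0.10), or 2.58-fold (limma, adjusted p = 4.86e-12). The 2 NADP-dependent isocitrate dehydrogenases measured, IDH1 and IDH2, therefore both rose. MDH1, the cytosolic malate dehydrogenase, read 10.11, 9.91 and 9.84 in control and 8.95, 9.01 and 8.98 in knockdown arrays. It fell by 0.98 (SE 0.08; limma, adjusted p = 1.50e-11), while the mitochondrial MDH2 was not called. SUCLA2, the ATP-forming beta subunit of succinyl-CoA ligase, went from 6.91, 6.61 and 7.04 to 5.91, 6.04 and 5.45. The groups lay far apart, and the change was -1.06 (SE 0.13; limma, adjusted p = 1.31e-07), or -0.66 with an offset of 64 on the log scale. SDHC, a membrane anchor of succinate dehydrogenase, differed by -0.40 (limma, adjusted p = 0.00158), but by 0.0611 when probe sets with neither mark (_x_ or _s_) came first. The other calls, all outside the rule for named genes and given to complete the list, were IDH3G (0.38) and SDHA (0.19) higher and SDHD (-0.32) and DLD (-0.30) lower. The SDHA call was borderline: its probe set carries an _x_ mark, its groups overlapped (9.65, 9.40 and 9.38 in control and 9.59, 9.72 and 9.69 in knockdown arrays; limma, adjusted p = 0.0467), and the call was lost in 11 of 15 alternative settings, among them leaving out any single array other than control replicate 1 (adjusted p = 0.0540 to 0.190). IDH3G is the gamma subunit of the NAD-dependent isocitrate dehydrogenase, so the 3 subunits of that complex gave a fall, a rise and no call.

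**Figure D4:**
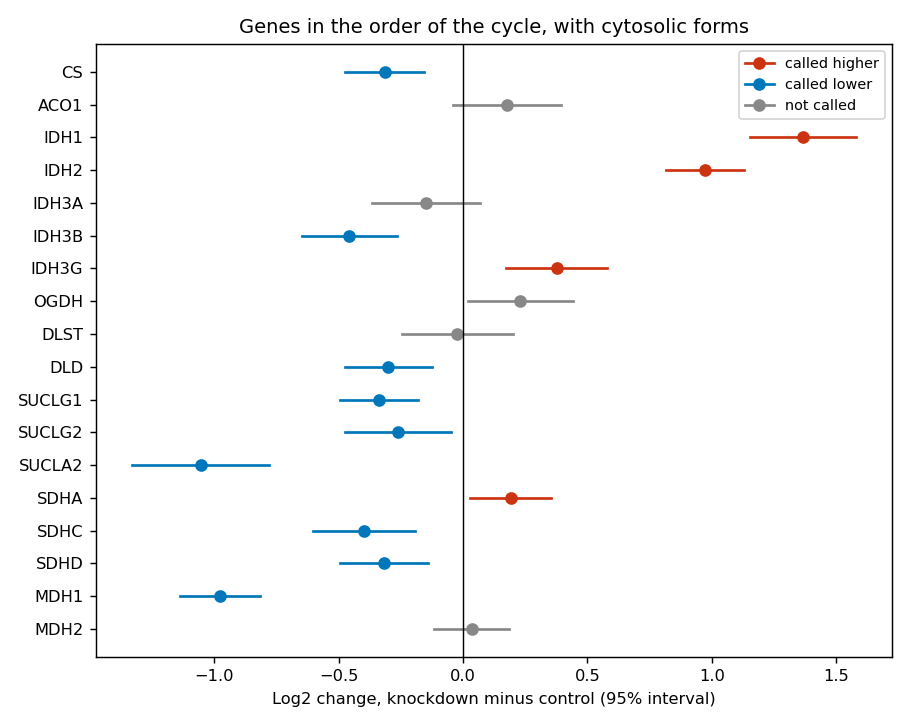
Log2 change from control to knockdown (x axis, point) with its 95% interval (line) for 18 genes in the order of the cycle's steps (y axis), from the limma fit over genes. IDH1 and IDH2 lie at 1.37 and 0.97, and SUCLA2 and MDH1 at -1.06 and -0.98.

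Entry of pyruvate into the cycle was read by 11 of 12 listed genes of the pyruvate dehydrogenase complex, its regulators and the mitochondrial pyruvate carrier. Of these, 2 were called higher and 4 lower, with a median of -0.02. The 6 calls in 11 genes stand beside 47.3% called over all genes tested. PDHB, the beta subunit of the first enzyme of the complex, fell from 8.74 ± 0.10 to 8.06 ± 0.07 (SD, n = 3 each), a fall of 0.68 (limma, adjusted p = 3.44e-07). MPC2, a subunit of the pyruvate carrier, fell by 0.54 and PDHA1, the alpha subunit of the first enzyme, by 0.35. With probe sets of neither mark first, these differed by -0.08 and -0.13, outside the threshold (limma, adjusted p = 0.605 and 0.322). PDK1, a kinase that inhibits the complex, rose by 0.33 (limma, adjusted p = 8.20e-04). The other calls, outside the rule for named genes, were PDP1 (0.35), another regulator of the complex, higher and DLAT (-0.31) lower.

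Of the enzymes and carriers that refill the cycle or draw from it, 11 of 13 listed were tested, 3 called higher and 5 lower, where all genes tested gave 25.3% higher and 22% lower; the median change was -0.08. PCK2, the mitochondrial phosphoenolpyruvate carboxykinase, which draws oxaloacetate from the cycle, read 5.23, 5.25 and 5.03 in control and 7.34, 7.44 and 7.39 in knockdown arrays. It rose by 2.22 (SE 0.11; limma, adjusted p = 3.32e-16), or by 1.36 with an offset of 64. All 3 of its control arrays lay below the filter of 5.49, so PCK2 entered the test through its knockdown arrays, and the offset makes the size of its rise uncertain. ACLY, which splits exported citrate to acetyl-CoA, fell from 8.93 ± 0.12 to 7.48 ± 0.13 (SD, n = 3 each), a fall of 1.45 (limma, adjusted p = 2.67e-13). SLC25A10, the dicarboxylate carrier, fell by 1.05 (0.68 with an offset of 64), and GOT1, the cytosolic aspartate aminotransferase, rose by 0.73. The other calls, outside the rule for named genes, were ME1 (0.44) higher and SLC25A1 (-0.73), ME2 (-0.65) and GOT2 (-0.36) lower.

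Of the general mitochondrial proteins, all 15 on the list were tested. The test called 9 of them lower and 2 higher, beside 22% lower and 25.3% higher over all genes tested; whether the list is out of balance was not tested. Their median change was -0.68, beside the median of -0.20 for the cycle genes; the difference between these medians was not tested. PHB1, a prohibitin of the inner membrane, changed by -1.49, VDAC3, a channel of the outer membrane, by -1.02 and SLC25A5, an ADP/ATP carrier, by -0.68. Outside the rule for named genes, VDAC1 (-0.92) was also called lower, while PHB2 (0.13) and VDAC2 (0.15) were not called. The prohibitins and the VDAC channels thus did not all fall. The 2 called higher, outside the rule for named genes, were LONP1 (0.94) and TOMM20 (0.79). HSPD1, the matrix chaperonin, fell by 0.71 on its brightest probe set. With probe sets of neither mark first, HSPD1 was instead called higher, by 0.34 (limma, adjusted p = 0.0296), so its direction depends on the probe set. The number called higher in this list went from 2 to 5 without control replicate 1 and to 5 with quantile normalization.

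The genes whose 6 values lay nearest to those of IDH2, after each gene's mean was subtracted, were SEC14L1, SELPLG and ORMDL1. Their root mean square differences from IDH2 over the 6 arrays were 0.03 each, and SELPLG and ORMDL1 rose by 0.98 and 0.95. SEC14L1 read 8.84, 8.62 and 8.64 in control and 9.73, 9.72 and 9.66 in knockdown arrays, with control replicate 1 the highest control, as in IDH2. These genes were picked for this likeness, so it is not a separate result.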

How the data were processed

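The table deposited by the authors held a log2 expression value for each probe set on each array, with a floor at 4, the log2 of 16, read from the values. Per the submitters' processing notes, MAS5 and PLIER were used; their roles, and how arrays were scaled to each other, are not given in the sources used here. Values were used as deposited. Because of the offset, folds of dim probe sets are understated.

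Of 54675 probe sets, 62 controls were left out. Under the platform annotation 41091 had 1 gene symbol, 1801 several and 11721 none here; 41037 of those with 1 symbol matched a RefSeq gene ID (GRCh38.p14). The probe set test took all 54613; the gene test took the probe set with the highest mean of each gene if that mean was at least 5.49 (12939 genes). Both used limma 3.58.1 in R 4.3.3 (lmFit, eBayes with an intensity trend, two-sided, Benjamini-Hochberg, threshold 0.05). Changes are knockdown minus control. Adjusted p-values are those of the gene test unless said to be over all probe sets, and alternatives to the gene test are counted in its settings. The number of arrays limits the precision.

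Named genes were CTNNB1, all members, up to 4 called genes of each other list by adjusted p, and the 3 genes nearest to the member with the lowest adjusted p. Members and lists were chosen with earlier results of these data known. Alternatives were a replicate block, median centring, quantile normalization, an offset of 64, no intensity trend, other filters and probe set rules, and leaving out each array. Promoter stretches came from RefSeq; 7 of the 8 genes matched.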

Additional observations from a re-analysis of the deposited data

How the results depend on the processing

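The direction of CS, IDH2 and IDH3B and their calls held in all settings tried. The number of members called lower was 5 by probe set and became 8 with quantile normalization and 8 after centring on array medians, where 3 bright SUCLG2 probe sets passed. The number of member genes called higher went from 1 to 2 with quantile normalization and to 2 with a filter at the 75th percentile, where OGDH passed; leaving out each array gave 1 to 2. With the mean over probe sets, 2 in place of 4 member genes were called lower, the members' median change was -0.0638, and SUCLG1 minus SUCLG2 turned to 0.17. Leaving out each array gave a median of -0.26 to -0.12. Among general mitochondrial proteins, those called higher numbered 5 with quantile normalization, 4 with the filter at the 75th percentile, 4 with the mean over probe sets and 2 to 5 on leaving out each array, beside 2. In the rest of the cycle 3 were called lower with the mean over probe sets, beside 5. For the pyruvate dehydrogenase list 1 was called higher with the filter at the 75th percentile, and 1 higher and 2 lower with probe sets of neither mark (_x_ or _s_) first. SDHC turned to 0.0611 (not called) and HSPD1 to 0.34 (called higher) with that rule. Beyond the choice of probe sets, the cause was not tested.

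The replicate numbers showed no sign of pairing the arrays: the deviations of same-numbered arrays from their group means correlated at -0.04, -0.12 and -0.22. Arrays of different numbers correlated at -0.06 to 0.16. With 3 arrays per group these values cannot show that the cultures were unpaired. With the replicate block, 1 member gene was called higher and 3 lower, as SUCLG2 was not called (limma, adjusted p = 0.0972); the member probe sets gave 2 higher and 5 lower. Dim probe sets near the floor, such as 215774_s_at of SUCLG2, limit what can be seen of a fall.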
